A study of Mus musculus with 16 samples.

Results

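The genes described here carry a calcium signal from the cytoplasm to the nucleus: the 4 genes of calcium/calmodulin-dependent protein kinase II (Camk2a, Camk2b, Camk2d and Camk2g), the kinase gene Camk4 and its activator Camkk2, the calcineurin subunits Ppp3ca, Ppp3cb and Ppp3r1, and the transcription factor gene Creb1. Their probes were found through the RefSeq accession that the scanner files give each probe, and every probe was kept separate. This gave 18 of 55598 probes, at least 1 for each of the 10 genes. Of these, 13 passed the detection filter (well above background on at least 4 of 16 arrays) and were tested, among 24010 probes tested in all.

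Calcium that enters an active neuron binds calmodulin, which switches on the CaM kinases and the phosphatase calcineurin. CaMKII is an abundant kinase of synapses built from alpha, beta, gamma and delta subunits, and the beta subunit also binds actin. CaMKK2 phosphorylates CaMKIV, which acts in the nucleus on CREB, while calcineurin dephosphorylates NFAT and other proteins. These proteins are controlled largely by calcium and phosphorylation, whereas the arrays read only mRNA.

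The cells were mitral cells, which carry the output of the olfactory bulb, from ICR mice at postnatal day 3 (P3) or 6 (P6). They had received pCAG-EYFP alone (control) or pCAG-EYFP and pCAG-Kir2.1 by in utero electroporation at embryonic day 12, so all 4 groups carry EYFP under the CAG promoter. Kir2.1 is a potassium channel that holds neurons near rest, and the design asks which transcripts differ when activity is lowered, at 2 ages. EYFP-positive cells were picked by hand, their cDNA was amplified by 30 cycles of PCR, and cells positive for EYFP and Pcdh21 (Cdhr1) were pooled 10 to an array, with 4 pools per group. How many animals gave the cells of a pool is not stated, so p-values measure the spread between pools, part of which may be technical.

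Each level is a log2 signal set relative to its array's 75th percentile, so a level of 0 equals that percentile, and no probe's level is set against that of another probe. Of 11 mitral and tufted cell markers, 8 were above background on all 16 arrays (Cdhr1, Tbx21, Eomes, Tbr1, Slc17a7, Slc17a6, Ntng1 and Nrp1). Reln was above background on 13 arrays, among them 1 of 4 P6 control pools, Barhl2 on 8 and Lhx5 on 0. The single probe of Kcnj2, the endogenous Kir2.1 gene, was above background on 0 arrays, and as it may not read the introduced cDNA it is no check of the labels. Pools of a group correlated across tested probes with a median r of 0.867 (control) and 0.84 (Kir2.1) at P3, and of 0.794 (control) and 0.81 (Kir2.1) at P6. All P3 arrays lay on 1 slide and all P6 arrays on the other. Age therefore cannot be told apart from slide, nor treatment from the row on the slide.

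Promoter sequences from RefSeq (GRCm38.p6) were searched for 6 of the 10 genes, and those of the other genes were not looked at. The 250 bases before the start are shown for Camk2b, the only gene with a called probe, and for Ppp3r1. Ppp3r1 was the only 1 of the 6 searched promoters with a half-site of the cAMP response element, to which CREB binds. The Camk2b stretch is chr11:6065749-6065998 on the minus strand and the Ppp3r1 stretch is chr11:17159048-17159297 on the plus strand. Capitals mark the half-site TGACG and the GC box GGGCGG on either strand, and neighbouring GC boxes may overlap.
Camk2b: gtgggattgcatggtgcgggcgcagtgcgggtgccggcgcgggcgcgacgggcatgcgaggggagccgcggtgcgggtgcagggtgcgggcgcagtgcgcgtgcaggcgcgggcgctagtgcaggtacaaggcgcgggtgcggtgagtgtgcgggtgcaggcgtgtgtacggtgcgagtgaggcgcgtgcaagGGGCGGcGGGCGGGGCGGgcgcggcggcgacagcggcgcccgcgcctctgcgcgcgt
Ppp3r1: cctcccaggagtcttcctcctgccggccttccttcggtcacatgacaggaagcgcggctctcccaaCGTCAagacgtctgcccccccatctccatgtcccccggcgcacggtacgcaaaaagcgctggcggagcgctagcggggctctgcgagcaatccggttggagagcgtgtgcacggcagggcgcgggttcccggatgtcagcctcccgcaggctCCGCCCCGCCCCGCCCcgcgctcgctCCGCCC

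The full element TGACGTCA was absent from the 6 promoters and present in 1.55% of 32851 promoters of the same length. The half-site was in 17.8% of them, and the Ppp3r1 promoter held it once, 184 bases before the start. GC boxes were in 32.7% of all promoters. The Camk2b promoter held 3 and the Ppp3r1 promoter 4, in windows of 78.4% and 70.8% GC against a median of 52.4%. The promoters of Camk2d, Camkk2, Creb1 and Ppp3cb held 3, 1, 1 and 2 GC boxes. A match of letters is a description of these windows, not a binding site.

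Camk2b, the beta subunit gene, had the one called change among the member probes, with age. Its probe A_55_P2109377 was above background on all 16 arrays. In P3 control its level was 2.29, 2.46, 2.28 and 2.46 in pools 1 to 4, and in P3 Kir2.1 it was 1.75, 2.26, 1.69 and 1.72. In P6 control it was 3.61, 3.43, 2.80 and 3.46, and in P6 Kir2.1 it was 2.77, 2.61, 2.43 and 2.83. All 4 P6 control pools lay above all 4 P3 control pools, and all 4 P6 Kir2.1 pools lay above all 4 P3 Kir2.1 pools.

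Between P3 and P6, Camk2b rose in control cells by 0.95 (SE 0.23, 95% interval 0.45 to 1.45, adjusted p = 0.049), from 2.38 ± 0.10 to 3.33 ± 0.36 (SD, n = 4), a 1.93-fold higher signal. It was the 1 member probe of 13 past the threshold in this comparison, where 2.3% of all tested probes passed and 1.13% passed as higher. In Kir2.1 cells the change with age was 0.81 (SE 0.23, interval 0.31 to 1.31, adjusted p = 0.127), from 1.85 ± 0.27 to 2.66 ± 0.18, which did not pass. The 2 age changes differed by -0.14 (adjusted p = 0.921). In a pool, fewer cells with a transcript and less of it per cell cannot be told apart.

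The age call of Camk2b lay close to the threshold. It remained without P6 control pool 3 and ended without any other of the 16 pools, at adjusted p values of 0.051 to 0.129. It also ended in 5 of 11 other settings, among them scaling on all probes (adjusted p = 0.0581) and the authors' deposited value table (0.0571). The change kept its sign throughout, at 0.76 to 1.13.

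Camk2b levels were also lower on average with Kir2.1 at both ages, and neither difference passed. At P3 the difference was -0.52 (SE 0.23, interval -1.02 to -0.03, unadjusted p = 0.0406, adjusted p = 0.745), and the groups did not overlap. At P6 it was -0.66 (SE 0.23, interval -1.16 to -0.17, unadjusted p = 0.0126, adjusted p = 0.159), and the groups overlapped only through control pool 3 at 2.80 and Kir2.1 pool 4 at 2.83. Averaged over both ages it was -0.59 (SE 0.16, adjusted p = 0.117). Without P6 control pool 3 it was -0.68 and passed (adjusted p = 0.0427), the 1 of 16 fits without 1 pool that did. The group means ran from P6 control (3.33) through P6 Kir2.1 (2.66) and P3 control (2.38) to P3 Kir2.1 (1.85), and the pools of the middle pair overlapped.

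The other Camk2b probe, A_55_P2150578, carries the same RefSeq accession but read a different pattern. Its level was -2.16, -3.42, -4.54 and -3.0 in P3 control, and -1.76, -3.20, -1.40 and -9.18 in P3 Kir2.1. In P6 control it was -1.85, -4.71, -9.41 and -2.30, and in P6 Kir2.1 it was -3.28, -3.55, -3.08 and -3.56. It was above background in 4, 3, 3 and 4 pools of these groups. The changes were -1.29 with age in control, 0.52 with age in Kir2.1, -0.60 with Kir2.1 at P3 and 1.2 with Kir2.1 at P6, all at adjusted p values of 0.748 or more. Over the 16 arrays the log2 signals of both probes had a Pearson r of 0.077, given as a description.

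**Figure D1:**
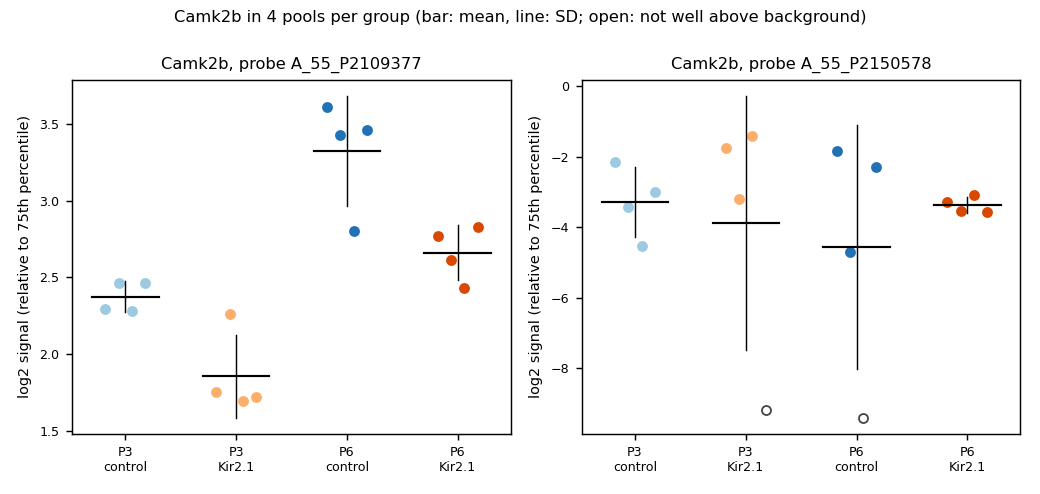
Log2 signal (relative to the array's 75th percentile) of both Camk2b probes in the 4 groups on the horizontal axis. Points are pools, bars are means of 4 pools, vertical lines are SDs and open points are not well above background. The probe A_55_P2109377 runs from 1.69 to 3.61 and is higher at P6 in both treatments, while A_55_P2150578 falls to -9.18 and -9.41 in single pools.

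The named genes whose profile over the 16 arrays was most like that of Camk2b probe A_55_P2109377 were Cnrip1 (Pearson r = 0.925), whose protein binds the cannabinoid receptor, and Sirpa (r = 0.911), a membrane glycoprotein. These are descriptions over 16 arrays in 4 groups, chosen for their likeness. Among the member probes, Camk4 probe A_55_P2097206 had r = 0.715 with it and Ppp3r1 had r = 0.525.

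Camk2a, the alpha subunit gene, was read near background. Its probe A_55_P2149215 gave -7.14, -4.6, -9.56 and -3.99 in control pools and -8.65, -9.32, -9.11 and -4.59 in Kir2.1 pools at P3. At P6 the levels were -3.21, -3.61, -8.39 and -6.17 in control and -7.64, -3.66, -7.34 and -3.93 in Kir2.1 pools. It was above background in 3, 1, 3 and 4 pools, and every pair of groups overlapped. The difference with Kir2.1 was -1.60 (SE 1.56, adjusted p = 0.928) at P3 and -0.30 (adjusted p = 0.95) at P6. The change with age was 0.98 in control and 2.28 in Kir2.1 cells and did not pass in either. The other Camk2a probe, A_55_P2149209, was above background on only 2 arrays and was not tested.

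Camk2d and Camk2g encode the delta and gamma subunits. Camk2d probe A_52_P428745, above background on all arrays, gave -0.60, -0.32, -1.41 and -1.17 in control pools and -0.41, -0.75, -1.07 and -1.80 in Kir2.1 pools at P3. The P6 pools gave -1.44, -0.52, 1.03 and -0.96 in control and -0.80, -1.29, -2.94 and -1.61 in Kir2.1 pools. The P6 groups overlapped, with 1 high control pool and 1 low Kir2.1 pool, and differed by -1.18 with Kir2.1 (SE 0.56, unadjusted p = 0.0528, adjusted p = 0.299). The probe A_55_P1978830 lay between -7.77 and -5.13 and changed by 0.32 and -0.45 with Kir2.1 at P3 and P6, neither past the threshold. A further Camk2d probe, A_52_P188261, was above background in 3 P3 control pools and in no other pool, and was not tested. The 2 tested Camk2d probes had r = 0.106.

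Camk2g was even across P3 pools and spread widely in P6 Kir2.1. Its level was -0.30, -0.29, -0.11 and -0.06 in P3 control, and 0.02, -0.38, 0.09 and -0.49 in P3 Kir2.1. It was 0.36, 0.15, 0.57 and 0.57 in P6 control, and -0.49, -0.02, 0.80 and -1.91 in P6 Kir2.1. All P6 control pools lay above all P3 control pools, by a mean of 0.60 that did not pass (adjusted p = 0.508). The difference with Kir2.1 at P6 was -0.82 (SE 0.43, adjusted p = 0.349), with overlapping groups. Over all tested probes, 12.5% separated the ages in control and 2 of 13 member probes did, Camk2b and Camk2g.

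Camk4, the nuclear kinase gene, had its highest pools in P6 control. Its probe A_55_P2097206 gave -9.40, -5.39, -5.41 and -3.60 in P3 control, and -8.75, -5.03, -8.38 and -9.32 in P3 Kir2.1. It gave -1.60, -1.28, -1.90 and -5.76 in P6 control, and -5.00, -3.09, -4.22 and -7.15 in P6 Kir2.1. P6 control pools 1 to 3 lay above all others, while pool 4 lay among the Kir2.1 pools. The probe was above background in 3, 1, 4 and 4 pools of the groups.

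The change of Camk4 with age was 3.32 in control (SE 1.38, interval 0.35 to 6.28, unadjusted p = 0.0312, adjusted p = 0.23) and 3.0 in Kir2.1 cells (unadjusted p = 0.0478, adjusted p = 0.338). With Kir2.1 it differed by -1.92 at P3 (adjusted p = 0.884) and -2.23 at P6 (adjusted p = 0.432). None of these passed, and the wide intervals leave both small and large differences possible. The other Camk4 probes were not tested: A_55_P2096324 was above background only in P6 control pool 3, at -2.65, and A_66_P108791 on 2 arrays.

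Camkk2, the gene of the upstream kinase, was bright through probe A_55_P2329923, above background on all arrays. It gave 0.38, 1.06, -0.22 and 0.63 in control pools and -0.88, 0.00, -1.08 and 0.65 in Kir2.1 pools at P3. At P6 it gave 0.61, 0.24, -0.65 and 0.79 in control and 0.13, 0.96, -0.56 and -0.07 in Kir2.1 pools. All groups overlapped. Kir2.1 minus control was -0.79 at P3 (SE 0.47, adjusted p = 0.85) and -0.13 at P6 (adjusted p = 0.92). The dim probe A_55_P2125684 was above background in 1, 2, 0 and 1 pools. With age in control, the P3 mean was 1.68-fold above the lowest signal above background on the P6 control arrays. That value rests on P3 control pool 2 at -3.26, the only P3 control pool above background, so it is no bound on a fall. The change did not pass (adjusted p = 0.254).

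No calcineurin member passed in any comparison. The catalytic subunit gene Ppp3ca gave 1.47, 1.48, 1.27 and 0.99 in control pools and 1.26, 0.96, 1.43 and 1.59 in Kir2.1 pools at P3. At P6 the levels were 1.25, 0.61, 1.79 and 1.42 in control and 1.18, 1.14, 1.81 and 1.16 in Kir2.1 pools. Its group means lay between 1.27 and 1.32. Between treatments it differed by 0.01 at P3 (interval -0.59 to 0.61) and 0.06 at P6 (interval -0.55 to 0.66), and the changes with age were -0.03 in control and 0.01 in Kir2.1 cells. The intervals bound a change of Ppp3ca more closely than most others here, and still allow one of up to 0.66.

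Ppp3cb, the other catalytic subunit measured, gave -0.95, -0.63, -1.18 and -0.96 in control pools and -0.90, -0.16, -0.85 and -1.81 in Kir2.1 pools at P3. The P6 pools gave -0.40, -2.19, -0.96 and -0.50 in control and -0.17, -1.36, -0.28 and -1.07 in Kir2.1 pools. Its differences with Kir2.1 were 0.00 at P3 (interval -0.94 to 0.95) and 0.30 at P6 (interval -0.65 to 1.24). All groups overlapped.

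Ppp3r1 encodes the regulatory subunit that binds calcium. It gave -0.87, -1.67, -1.77 and -1.58 in P3 control, and -1.66, -2.91, -2.04 and -2.32 in P3 Kir2.1. It gave -0.57, -0.97, -1.0 and -1.54 in P6 control, and -0.50, -1.60, -0.71 and -2.04 in P6 Kir2.1. The P3 Kir2.1 pools lay lowest as a group but overlapped the control pools. Kir2.1 pools differed from control by -0.76 at P3 (SE 0.39, unadjusted p = 0.0707, adjusted p = 0.815) and -0.19 at P6, and the change with age was 0.45 in control and 1.02 in Kir2.1 cells (SE 0.39, unadjusted p = 0.0204, adjusted p = 0.247). None passed.

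Creb1 was at or near background throughout. Its probe A_55_P2114427 gave -7.38, -9.36, -9.28 and -4.91 in control pools and -5.06, -9.43, -8.07 and -4.65 in Kir2.1 pools at P3. At P6 it gave -8.68, -7.29, -9.29 and -9.37 in control and -9.81, -9.77, -9.55 and -4.01 in Kir2.1 pools. It was above background in 1, 2, 0 and 1 pools, so its difference with Kir2.1 at P3, 0.93 (SE 1.45), compares mostly background, and none is given at P6. The other probe, A_52_P517730, was above background in P3 control pool 4 and P6 control pool 2 only and was not tested. A level near background on these arrays does not show that Creb1 mRNA was absent.

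Counted together, 0 of 13 member probes passed with Kir2.1 at P3, where 0.0125% of all probes did, and 0 passed at P6, where 1.61% did. At an unadjusted p under 0.05 there was 1 at each age, Camk2b A_55_P2109377, against 6.48% and 17.1% of all probes. The groups did not overlap for 1 member probe at P3 (6.76% of all) and 0 at P6 (8.75% of all). The median change was -0.52 at P3 and -0.19 at P6, against -0.02 and -0.11 over all probes, with 8 of 13 negative at each age. For the mean of both ages 0 passed (0.75% of all) with 1 at an unadjusted p under 0.05 (13.4% of all), and for the interaction of age and Kir2.1 0 passed (0.0875% of all) with 0 at an unadjusted p under 0.05 (10.4% of all).

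With age, the median change of the member probes was -0.03 in control and 0.21 in Kir2.1 cells, against -0.09 and -0.17 over all probes. In Kir2.1 cells 0 of 13 passed, where 0.833% of all probes did. At an unadjusted p under 0.05 there were 3 member probes in each treatment, against 17.6% and 14.5% of all. In Kir2.1 cells the ages did not overlap for 1 member probe, Camk2b A_55_P2109377, against 10.3% of all. The 3 at the unadjusted level were, in control, Camk2b A_55_P2109377, Camk4 A_55_P2097206 and Camkk2 A_55_P2125684, and in Kir2.1 cells Camk2b A_55_P2109377, Camk4 A_55_P2097206 and Ppp3r1. The age comparisons and the Kir2.1 comparisons share pools, so they are given side by side and not as support of one another.

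**Figure D2:**
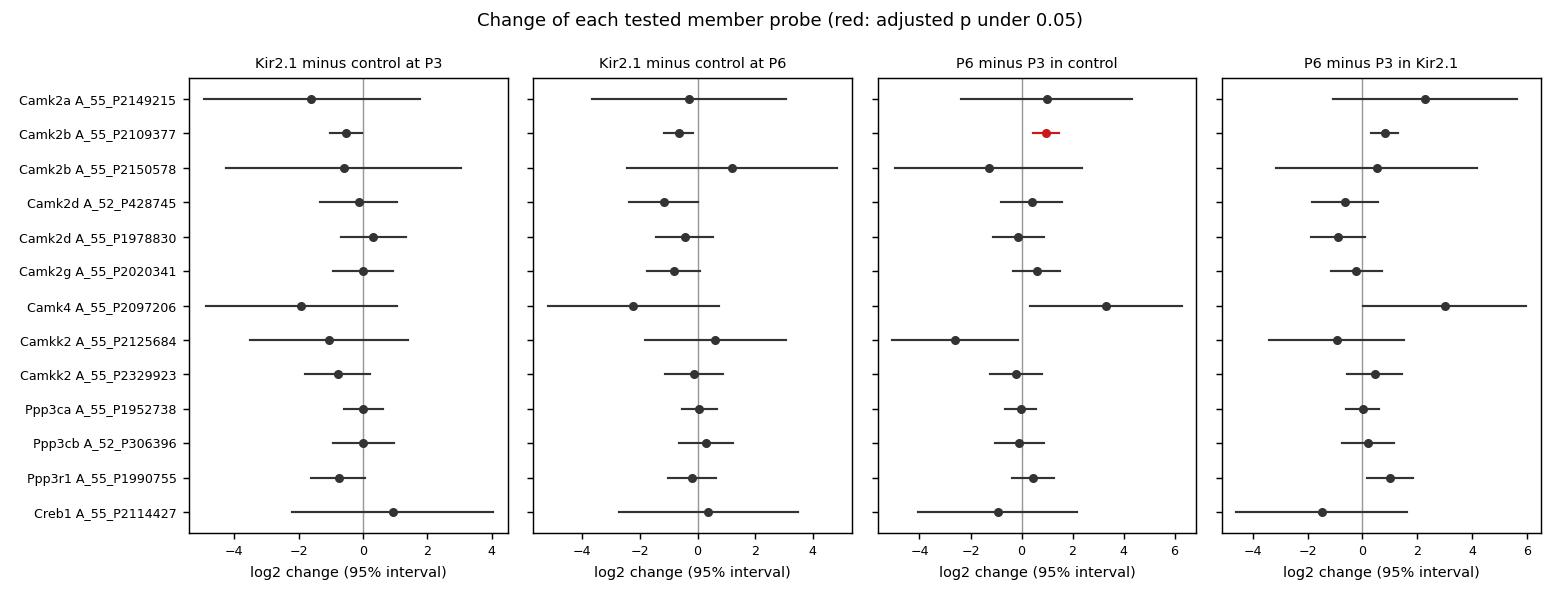
Log2 change of each of the 13 tested member probes (dots) with 95% intervals (lines), in 4 panels for Kir2.1 minus control at P3 and P6 and for P6 minus P3 in control and Kir2.1 cells. Red marks an adjusted p under 0.05, which only Camk2b A_55_P2109377 has, at 0.95 with age in control. Most intervals cross 0, and those of the dim probes are several log2 units wide. Camkk2 A_55_P2125684 and Creb1 had 0 P6 control pools above background.

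Markers of other cell types moved between the groups. The summed level of 17 interneuron markers, on a linear scale where the 75th percentile is 1, ran at P3 from 1.015 to 1.455 in control and from 1.233 to 1.581 in Kir2.1 pools, and at P6 from 4.03 to 10.66 in control and from 1.589 to 3.625 in Kir2.1 pools. Of 14 tested interneuron markers, 13 were positive with age in control (45.8% of all probes) and 4 passed as higher (1.13% of all). These were Gad1 (6.23) and Gad2 (6.87), which make GABA, the transcription factor gene Meis2 (4.32) and Synpr, a vesicle protein (2.02). Gad1 and Gad2 were each above background in only 1 of 4 P3 control pools, so the size of their changes is set largely against background. With Kir2.1 at P6, 2 of 14 were positive (44.8% of all) and 12 negative, and Penk, which encodes proenkephalin, passed as lower. It was above background in 3 of 4 P6 control pools, 1 P3 control pool and 0 P6 Kir2.1 pools. Its P6 control mean was 28.4-fold above the lowest signal above background on the P6 Kir2.1 arrays. That mean includes a pool not above background, so the value is no bound on the difference. Penk and Dlx1 were each above background on 4 arrays, 3 of them P6 control pools. They met the detection filter mainly through the group where they were high. The Penk call and part of these counts therefore lean on the filter. Gad1, Gad2 and Slc32a1 were above background in all 4 P6 control pools, and Calb1 on no array.

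Summed astrocyte and radial glia markers ran at P3 from 1.755 to 4.357 in control and 3.601 to 10.12 in Kir2.1 pools, and at P6 from 11.7 to 14.25 in control and 3.94 to 15.43 in Kir2.1 pools, and 7 of 7 tested members were positive with age in control (median 2.21, Fabp7 called) and 0 of 7 with Kir2.1 at P6 (median -1.14). With Kir2.1 at P6, 0 of 5 tested microglia markers (median -2.62), 0 of 4 ensheathing markers (median -1.18) and 3 of 9 oligodendrocyte lineage markers (median -0.51) were positive, and 0 markers of these 4 lists passed. The microglia marker C1qc met the filter mainly through 3 P6 control pools. Dividing cell markers ran the other way, with 3 of 3 positive (median 2.8), though Mcm2 was above background in 0 P6 control pools. Of vascular and blood markers 2 of 5 were positive (median -0.01), and of olfactory sensory neuron markers 2 of 5 (median -0.26), none past the threshold. Summed mitral and tufted markers were 14.37 to 19.57 in P3 control, 13.04 to 16.87 in P3 Kir2.1, 10.03 to 17.02 in P6 control and 19.06 to 26.07 in P6 Kir2.1 pools. Without the 2 P6 control pools highest in interneuron markers, an alternative chosen after seeing the data, Camk2b changed by 0.76 with age in control (adjusted p = 0.211) and by -0.47 with Kir2.1 at P6 (adjusted p = 0.46). The remaining 2 P6 control pools still had interneuron sums of 4.849 and 4.03, above all other groups. Beyond these values, the part of other cells in the Camk2b change was not tested.

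**Figure D3:**
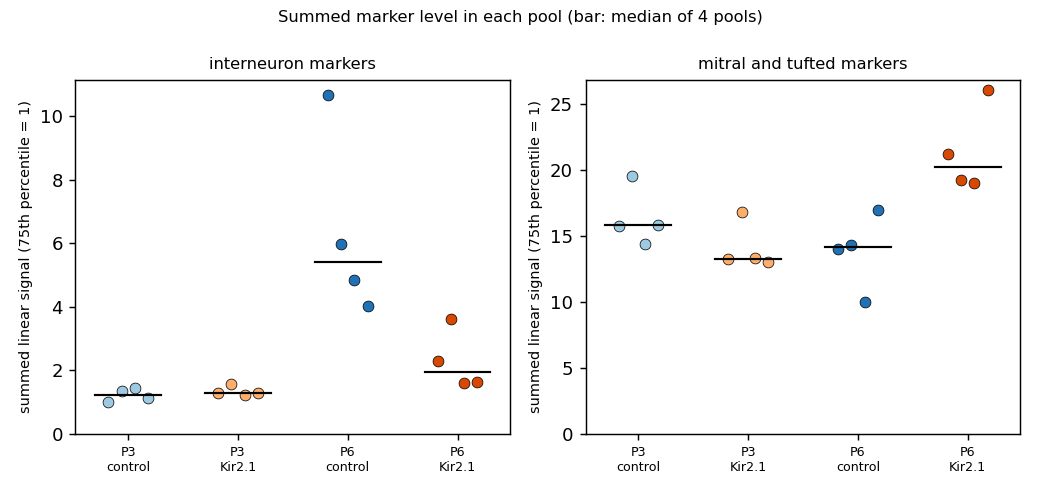
Summed linear signal (75th percentile of the array = 1) of the interneuron markers and of the mitral and tufted cell markers in each pool, by group. Points are pools and bars medians of 4 pools. Interneuron sums reach 4.03 to 10.66 in P6 control and stay at or below 3.625 in the other groups, while mitral and tufted sums are 19.06 to 26.07 in P6 Kir2.1.

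Around the member genes, 61 other genes of the pathway were listed, of which 53 could be tested, each by 1 probe. With Kir2.1, 0 of 53 passed at P3 (0.0125% of all probes), with 2 at an unadjusted p under 0.05 (6.48% of all). At P6, 1 passed as higher and 0 as lower (1.61% of all), with a median of -0.14 against -0.11 over all probes. With age in control, 1 passed as higher and 2 as lower (2.3% of all), with a median of -0.07 against -0.09. In Kir2.1 cells 1 passed as higher (0.833% of all), with a median of -0.11 against -0.17. For the interaction 0 passed (0.0875% of all), with 6 of 53 at an unadjusted p under 0.05 (10.4% of all).

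Among genes that encode calmodulin, Calm2 and Calm3 differed with Kir2.1 by -0.01 and 0.14 at P3 and by 0.12 and 0.31 at P6, none past the threshold.

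Nrgn encodes neurogranin, which binds calmodulin at low calcium. It gave -5.93, -3.08, -4.61 and -3.57 in P3 control, and -7.25, -4.84, -3.25 and -3.97 in P3 Kir2.1. It gave -2.04, -2.85, -2.13 and -0.03 in P6 control, and 0.39, -0.20, -1.38 and -0.01 in P6 Kir2.1. In each treatment all P6 pools lay above all P3 pools. Nrgn rose with age in Kir2.1 cells by 4.53 (SE 0.87, adjusted p = 0.0324), the 1 called of 6 calmodulin and buffer genes (0.833% of all probes). It changed by 2.54 in control (adjusted p = 0.147). The 2 changes differed by 1.99 (adjusted p = 0.619). The call ended without P3 Kir2.1 pools 1, 2 or 4 or P6 Kir2.1 pools 1, 2 or 4, at adjusted p values of 0.0567 to 0.0859, and remained in 10 of 11 other settings.

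Among 9 other CaM kinases and CaMKII inhibitors, 0 passed in any comparison. Camk2n1, an inhibitor of CaMKII, gave -2.0, -2.39, -2.20 and -2.05 in control pools and -0.38, -1.14, -1.28 and -0.92 in Kir2.1 pools at P3. At P6 the levels were -2.93, -4.55, -4.12 and -0.93 in control and -0.74, -2.03, -0.13 and -1.24 in Kir2.1 pools. The P3 groups did not overlap, and at P6 control pool 4 lay among the Kir2.1 pools. Against control, Kir2.1 pools differed by 1.23 at P3 (SE 0.64, adjusted p = 0.822), 2.1 at P6 (SE 0.64, adjusted p = 0.11) and 1.66 over both ages (adjusted p = 0.111), and none passed. Without P6 control pool 4 the P6 difference was 2.83 and passed (adjusted p = 0.0175), the 1 of 16 fits without 1 pool that did. Camk1d, a CaM kinase I gene, differed by 1.60 at P6 (SE 0.51, adjusted p = 0.125), with control pools from -4.92 to -1.93 and Kir2.1 pools from -2.15 to -1.35. It passed only without P6 control pool 3, at 2.04 (adjusted p = 0.0474). The other Camk1d probe, A_52_P131353, was above background in 0 pools of each group and was not tested. Camk1 changed with age by 2.63 in control (adjusted p = 0.197).

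Of 9 tested genes of calcineurin regulators, binding proteins and NFAT factors, Rcan2, a gene of the family of calcineurin regulators, passed with age in control (2.3% of all probes). Its level was -2.28, -1.86, -3.07 and -2.20 in P3 control, and -1.77, -3.35, -1.39 and -2.19 in P3 Kir2.1. It was 0.18, -0.21, -1.49 and 0.03 in P6 control, and -0.94, -0.17, -0.44 and -0.05 in P6 Kir2.1. All P6 pools of a treatment lay above its P3 pools. Rcan2 rose with age in control by 1.98 (SE 0.47, adjusted p = 0.0438), changed by 1.77 in Kir2.1 cells (adjusted p = 0.104), and differed by 0.18 and -0.03 with Kir2.1 at P3 and P6. The call in control remained in 4 of 16 fits without 1 pool, with adjusted p values up to 0.128, and in 8 of 11 other settings.

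Of 8 tested CREB family genes, coactivators and their regulators, 0 passed in any comparison. Crebbp, the coactivator CBP, gave -0.18, -0.12, -0.17 and 0.43 in control pools and 0.14, 0.80, 0.33 and 0.33 in Kir2.1 pools at P3. The P6 pools gave 0.42, 0.31, 1.52 and 0.95 in control and -0.81, 0.25, -1.16 and -0.03 in Kir2.1 pools. At P6 every Kir2.1 pool was lower than every control pool, with a difference of -1.24 that did not pass (SE 0.36, adjusted p = 0.0912). At P3 the difference was 0.41, and both differed by -1.65 (adjusted p = 0.251). Atf2, a relative of CREB, differed by -0.53 at P3 (adjusted p = 0.864) through probe A_55_P2062891, and its other tested probes gave 0.67 and 0.26.

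Prkaca, a catalytic subunit of the cAMP-dependent kinase, was the 1 called of 16 kinases and cyclases that converge on CREB. Over all probes, 1.61% passed with Kir2.1 at P6 and 2.3% with age in control. It gave -4.45, -3.70, -3.63 and -3.60 in P3 control, and -3.32, -3.78, -4.46 and -3.87 in P3 Kir2.1. It gave -5.90, -5.53, -5.21 and -5.13 in P6 control, and -4.47, -3.47, -3.60 and -2.51 in P6 Kir2.1. The P6 control pools lay below all 12 others. Prkaca was higher with Kir2.1 at P6 by 1.93 (SE 0.39, adjusted p = 0.0289), fell with age in control by 1.60 (SE 0.39, adjusted p = 0.0491), and differed by -0.02 with Kir2.1 at P3 and by 0.35 with age in Kir2.1 cells. The interaction of 1.95 did not pass (adjusted p = 0.221).

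The P6 call of Prkaca ended without P6 control pools 1 or 2 or P6 Kir2.1 pools 2 or 4 (adjusted p values of 0.0509 to 0.0619), and under normexp background correction the difference was 1.03 (adjusted p = 0.0559). It remained in 7 of 12 other settings. Its age call remained in 2 of 16 fits without 1 pool and in 4 of 11 other settings. Without the 2 P6 control pools highest in interneuron markers the Prkaca values were 1.66 with Kir2.1 at P6 (adjusted p = 0.111) and -1.33 with age (adjusted p = 0.21).

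Srf, a transcription factor that acts beside CREB on activity-dependent genes, was the 1 called of 5 other calcium-regulated transcription factors and related genes, with age in control (2.3% of all probes). It gave -0.16, 0.24, 0.27 and -0.46 in control pools and 0.04, -0.19, -0.91 and -1.22 in Kir2.1 pools at P3. At P6 it gave -1.40, -4.13, -1.59 and -3.64 in control and -2.45, -2.95, -0.84 and -1.40 in Kir2.1 pools. Srf fell with age in control by 2.66 (SE 0.63, adjusted p = 0.0442), with no overlap, and changed by -1.34 in Kir2.1 cells (adjusted p = 0.348). These values are from probe A_51_P100289. The other Srf probe, A_55_P2149540, was above background in 0 pools of each group and was not tested. The call remained in 4 of 16 fits without 1 pool and in 7 of 11 other settings, and the interaction was 1.32 (adjusted p = 0.65).

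**Figure D4:**
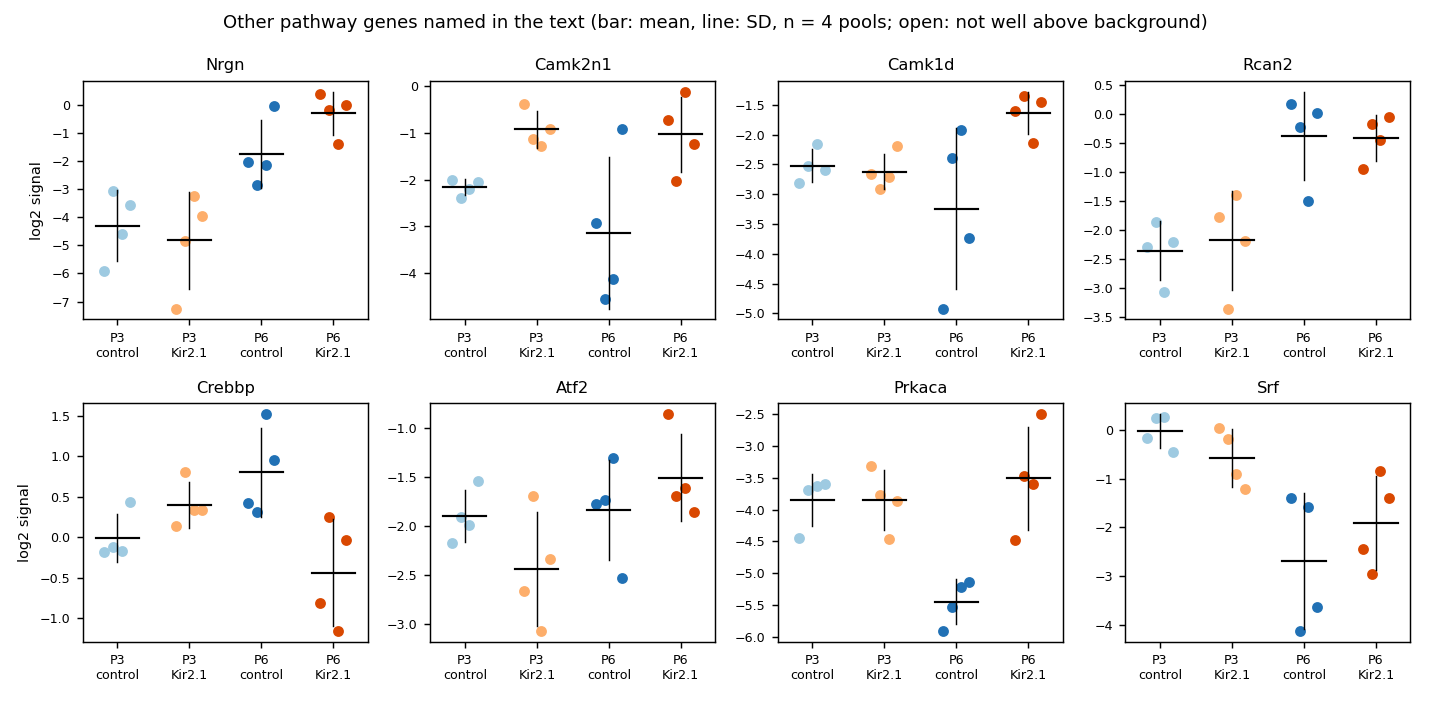
Log2 signal of the 8 other pathway genes named, 1 panel per gene with its own vertical scale, in the 4 groups. Points are pools, bars are means and lines SDs of 4 pools. Prkaca is lowest in the 4 P6 control pools (-5.90 to -5.13), Nrgn and Rcan2 are higher at P6 and Camk2n1 has higher means with Kir2.1 at both ages.

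Of 11 listed target genes of CREB, 8 were tested. Scg2, which encodes secretogranin II, passed as lower with Kir2.1 at P3 (-5.61) and P6 (-3.03). It was the 1 called of 8 at each age, against 0.0125% and 1.61% of all probes. The list was chosen with earlier results of these data known, so these shares do not test CREB targets as a set. Vgf, a secreted neuropeptide precursor, rose with age in control by 6.69 (adjusted p = 0.0126), the 1 called of 8 there (2.3% of all probes). Vgf was above background in 1 of 4 P3 control pools and Scg2 in 2 of 4 P3 Kir2.1 pools, so these sizes are set partly against background. With Kir2.1 at P6, 2 of the 8 were positive and 6 negative (median -1.06, against -0.11 over all probes). At P3 each sign had 4 (median -0.05). These counts do not test the set either. At P6 every Kir2.1 pool of Vgf (-9.81 to -4.1) lay below every control pool (-2.06 to -1.14), and the difference did not pass. Of these Kir2.1 pools, 3 of 4 were above background. Fos (0.08) and Arc (-3.04) did not pass with Kir2.1 at P6. Fos was above background in 2 of 4 pools of each P6 group, and Arc in 4 P6 control and 2 P6 Kir2.1 pools.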

How the data were processed

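The microarrays had 1 colour, and each of the 16 held cDNA pooled from 10 amplified cells. Per the file headers, the deposited scanner files came from Agilent Feature Extraction 10.7.3.1 and hold the processed intensity of each spot after the authors' background correction. The authors' deposited value table holds, as signal, that intensity divided by the 75th percentile of its array (ratio 1 to 1.001). Here log2 intensity was scaled on the 75th percentile of the 12103 probes above background on all arrays, because only 34.3% to 41.1% of probes were above background on any one array. A further 83 probes with outlier spots were left out, leaving 55598 probes.

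Probes above background on at least 4 arrays (24010) were fitted together in limma 3.58.1 (R 4.3.3), with 1 mean per group and Benjamini-Hochberg adjustment over all of them. The threshold was an adjusted p of 0.05, and the residual degrees of freedom were 12. Changes are on the log2 scale, values given as a fold are linear, and intervals cover 95%. The number of arrays limits the precision. Probes were named through their RefSeq accession.

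The P3 arrays lay on slide 1 and the P6 arrays on slide 2. Controls lay in row 1 and Kir2.1 pools in row 2 of each slide. The labels do not say whether same-numbered pools share a litter, and pools were treated as unpaired. Over all tested probes, same-numbered pools of an age deviated together with correlations of -0.028 to 0.025, which does not exclude shared animals.

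The members and gene lists were chosen with earlier results of these data known. The text names every member probe. Of each group of pathway genes it names those past the threshold, or else the 2 with the lowest p. Each called member is set beside the 2 named genes with the most similar profile. Genes outside these rules (Calm2, Calm3, Camk1 and Arc) were named after their values were seen. 1 gene of the pathway list is not reported here. Alternatives were normexp background correction (offset 50, on the median signal, since the files used here hold no mean signal), other scalings, filters and priors, subsets of arrays, a replicate block and leaving out each pool. The tests were checked on simulated data for Kir2.1 at P6 only. There they recovered 37% of changes of 2 log2 units and 62% of changes of 4, with 6 false calls. These shares are over all tested probes and depend on the spread of each. Among member probes the SE for Kir2.1 at P6 ran from 0.23 (Camk2b A_55_P2109377) to 1.7 (Camk2b A_55_P2150578). The shares therefore do not hold for any single member probe. A change of such a size can go uncalled where the spread is wide.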

Additional observations from a re-analysis of the deposited data

Results flagged for a closer look

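In each group of 4 pools, a pool was singled out where its gap to the nearest other pool exceeded Dixon's 95% critical value for 4 values, as a share of the group's range. This was checked for 72 groups of member probes and held in 8. Chance gives about 5% of groups.

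Of probes above background on all arrays, Camk2b A_55_P2109377 was high in P3 Kir2.1 pool 2 (2.26, others 1.69 to 1.75), and Ppp3ca A_55_P1952738 in P6 Kir2.1 pool 3 (1.81, others 1.14 to 1.18). For Camk2b that pool lies nearest to control, and it still lay below all 4 control pools.

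Of the dim tested probes, Camk4 A_55_P2097206 was low in P6 control pool 4 (-5.76, others -1.90 to -1.28). Camk2a A_55_P2149215 was high in P3 Kir2.1 pool 4 (-4.59, others -9.32 to -8.65), and Creb1 A_55_P2114427 was high in P6 Kir2.1 pool 4 (-4.01, others -9.81 to -9.55).

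Of the untested probes, Camk4 A_55_P2096324 was high in P6 control pool 3 (-2.65, others -10.10 to -9.01). Creb1 A_52_P517730 was high in P3 control pool 4 (-4.73, others -9.76 to -9.66) and in P6 control pool 2 (-3.97, others -10.44 to -9.72). In these 3 cases, and in those of Camk2a and of Creb1 A_55_P2114427, the high pool was the only one of its group above background.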

How the results depend on the processing

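The counts of called member probes stayed at 0 for Kir2.1 at P3, for Kir2.1 at P6 and for the interaction under every setting run, and no called change turned its sign. The 1 member probe called with age in control became 0 with scaling on all probes, the authors' value table, no detection filter, arrays of control only, and without the 2 P6 control pools highest in interneuron markers (an alternative chosen after seeing the data). Leaving out 1 pool at a time gave 0 to 1. With a trended robust prior the member probes called were 1 for Kir2.1 over both ages and 1 with age in Kir2.1 cells, both 0 otherwise, and leaving out 1 pool gave 0 to 1 for the former. For other pathway genes, the 1 called with Kir2.1 at P6 became 2 with normexp, 0 with arrays of P6 only, 0 with array weights and 3 with the trended robust prior, and 0 to 3 without 1 pool. The 3 called with age in control became 1 with scaling on all probes, 0 with no detection filter, 0 with arrays of control only and 0 without the 2 P6 control pools, and 0 to 3 without 1 pool. The 1 called with age in Kir2.1 cells became 0 with arrays of Kir2.1 only and 2 with the trended robust prior, and 0 to 1 without 1 pool. The cause was not tested, except that subsets and fits without pools hold fewer arrays.

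With the replicate number as a block, other pathway genes called with Kir2.1 at P6 went from 1 to 0 and member probes stayed at 0. The labels do not say whether the numbers pair the pools, and the block could not be fitted for age, since each number lies within an age. Depth is limited by signal over background: 7 of 18 member probes were above background on all 16 arrays, and for Camk2a, Camk4 and Creb1 no probe was.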
